A study of Mus musculus with 29 samples.

Results

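Matrix turnover was followed in sorted mouse podocytes, the filtering epithelial cells of the glomerulus, through 10 genes: the inhibitors Timp1, Timp2 and Timp3, the matrix metalloproteinases Mmp2, Mmp9, Mmp10 and Mmp14, and the secreted proteases Adamts1, Adamts2 and Adamts9. They were chosen from a list of symbols drawn up with the day and population differences of these arrays in view, so their values are a description and carry no test. All 10 genes had a probe, and all 10 are among the 15628 genes, of 20145 named on the array, that passed the filter on dim probes. Timp1 was 41.6-fold higher in TdTomato podocytes and 54.2-fold higher in EGFP podocytes at day 7 than at day 0, and it was already 12-fold higher in TdTomato podocytes at day 1. Mmp10 and Mmp2 were high in both populations at day 7. Mmp9 was above background on the 4 TdTomato arrays of day 4 and on no other array. Timp3, Mmp14 and Adamts2 were lower in TdTomato podocytes at day 1 than at day 0, and Adamts2 was 4.26-fold higher in EGFP podocytes at day 4.

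The arrays hold podocyte RNA of 16 male Pod-hCD25T/G mice on the C57BL/6J background, 8 weeks old. Each of the 4 time points was sampled in separate animals: 1, 4 or 7 days after an injection of 25 ng of LMB2 per gram of body weight, or before it (day 0). The podocytes were sorted into TdTomato-positive and EGFP-positive cells, with 4, 4, 4 and 2 TdTomato arrays and 4, 3, 4 and 4 EGFP arrays at days 0, 1, 4 and 7, and 13 mice gave both. LMB2 is an immunotoxin that binds human CD25 and blocks protein synthesis in the cells that carry it. General knowledge of the model, rather than any label, assigns human CD25 to the TdTomato cells and its absence to the EGFP cells of the same glomeruli. Human CD25 was not analysed here, so that assignment was not checked. A heminephrectomy came before the injection. The labels do not state the promoter that drives the transgenes, or if day 0 animals were operated on.

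Between 48.2% and 65.5% of the spots of an array were well above background, no spot was saturated, and arrays of the same group correlated at 0.956 to 0.987. All 7 podocyte markers were above background on at least 1 array of each of the 8 groups. Their summed signal lay between 9.75 and 11.35 on the log2 scale over the 29 arrays. Of these 7 markers 5 fell in TdTomato podocytes at day 1, 6 at day 4 and 5 at day 7, and none passed the test in EGFP podocytes. In bulk RNA, fewer cells of a type and less RNA per cell cannot be told apart. The identity of both day 7 arrays of mouse MC221 is not settled, because the authors' own value table does not match these 2 scanner files, while the other 27 columns match theirs. Day 7 values are therefore given by mouse.

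Matrix metalloproteinases are zinc proteases that are made as inactive proenzymes and cut collagens, other matrix proteins and growth factors. The TIMP proteins bind their active site and block it, and TIMP3 stays attached to the matrix and also inhibits ADAM and ADAMTS proteases. In the glomerulus the podocyte helps to build and renew the basement membrane on which its foot processes stand, so this balance of proteases and inhibitors acts on the membrane that filters the plasma.

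The promoters of Mmp10 and Timp1 are shown, whose fitted day 7 differences from day 0 were the largest of these genes in both populations. Timp2, Mmp2, Mmp14 and Adamts1 were also at their highest at day 7 in both populations. The windows run over 300 bases, 250 before and 50 after the start of the gene, in the RefSeq annotation of GRCm38.p6, given 5′ to 3′ on the gene's strand. Capitals mark a match to TGANTCA, the binding motif of the AP-1 transcription factors, which is its own reverse complement. The Mmp10 window is chr9:7502092-7502391 and the Timp1 window is chrX:20869916-20870215, both on the plus strand.
Mmp10: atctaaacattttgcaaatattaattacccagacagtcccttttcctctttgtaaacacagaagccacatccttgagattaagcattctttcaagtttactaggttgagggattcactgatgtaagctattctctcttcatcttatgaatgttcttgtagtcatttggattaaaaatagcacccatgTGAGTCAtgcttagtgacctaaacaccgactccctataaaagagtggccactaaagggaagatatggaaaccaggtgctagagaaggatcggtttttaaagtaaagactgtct
Timp1: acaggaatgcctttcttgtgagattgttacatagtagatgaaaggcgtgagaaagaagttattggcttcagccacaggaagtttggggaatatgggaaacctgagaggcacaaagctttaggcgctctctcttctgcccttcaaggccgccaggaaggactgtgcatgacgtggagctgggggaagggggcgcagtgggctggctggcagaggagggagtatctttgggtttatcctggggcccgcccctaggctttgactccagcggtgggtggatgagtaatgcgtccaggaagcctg
The match in the Mmp10 window is TGAGTCA, with its first base 63 bases before the start. Mmp10 is the 1 gene of the 8 with a window that holds the motif, and 2565 of all 32851 windows of this length (7.81%) hold it. The windows of Timp2, Mmp14 and Adamts1 held no match. Only exact matches were searched, so a site that differs from TGANTCA outside its middle base is neither marked nor counted. An unmarked window, as for Timp1, can therefore still hold such a site. No window was used for Mmp2 and Mmp9.

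Signals are given as the log2 of the background-subtracted spot signal minus the 75th percentile of the array, so 0 is the level of that percentile and each unit is a factor of 2. Levels of different genes are not compared, because each probe has its own brightness. Fitted differences are in log2 units with their standard error (SE), from a limma fit of 8 group means to all 29 arrays. Whether groups overlap is stated for each gene and is not read as a test. Of all genes, 20.4% lay wholly higher and 24.3% wholly lower at TdTomato day 1 than at day 0. These shares were 19.2% and 31% at TdTomato day 4, and 17.8% and 25.9% at TdTomato day 7. For EGFP days 1, 4 and 7 they were 1.8% and 1.75%, 3.95% and 1.07%, and 7.99% and 5.6%. For TdTomato against EGFP they were 21.8% and 25.1% at day 1, and 18.1% and 33% at day 4.

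Timp1, a secreted inhibitor of most matrix metalloproteinases, was low before the toxin in both populations and high at day 7 in both, but the populations differed on the way. In TdTomato podocytes its signal was -2.50, -3.01, -2.58 and -2.66 at day 0, 1.55, -0.01, 0.75 and 1.32 at day 1, 0.55, 0.27, 0.56 and 0.06 at day 4, and 2.78 (MC221) and 2.60 (MC791) at day 7. Every TdTomato array after the injection lay above every day 0 array, and the day 1 and day 4 arrays overlapped. In EGFP podocytes it was -1.98, -2.81, -2.77 and -2.51 at day 0, -1.46, -2.48 and -1.58 at day 1, 0.01, -1.18, 0.59 and -0.24 at day 4, and 3.24 (MC221), 3.24, 2.89 and 3.59 at day 7. EGFP day 1 overlapped day 0, and the later EGFP arrays stood above both.

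Relative to day 0, Timp1 in TdTomato podocytes was higher by 3.59 ± 0.33 (SE) at day 1 and by 3.05 at day 4, which is 12-fold and 8.27-fold, and by 5.38 ± 0.40 at day 7. EGFP podocytes gave 0.68 at day 1, 2.31 (4.96-fold) at day 4 and 5.76 ± 0.33 at day 7. At day 1 the 4 TdTomato arrays stood 2.74 above the 3 EGFP arrays, a 6.69-fold difference with no overlap. By day 4 the populations overlapped (0.36 ± 0.24 in TdTomato and -0.21 ± 0.74 in EGFP, SD, n = 4 each), and at day 7 both TdTomato arrays lay below all 4 EGFP arrays. Within slides, each of which was 1 scan, the TdTomato day 1 difference ran from 3.0 to 4.05 on 4 slides, and the EGFP day 7 difference from 5.22 to 6.05 on 3. Normexp background correction, which adds an offset of 50 to each signal, gave smaller differences of 2.30, 1.87 and 3.85 at TdTomato days 1, 4 and 7, and of 1.44 and 4.46 at EGFP days 4 and 7.

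Timp3, the matrix-bound inhibitor, moved the other way in TdTomato podocytes. Its signal there was 8.38, 8.09, 8.75 and 7.93 at day 0, 7.00, 7.31, 7.42 and 7.05 at day 1, 7.09, 7.18, 7.44 and 7.42 at day 4, and 7.24 (MC221) and 7.99 (MC791) at day 7. The 8 arrays of days 1 and 4 all lay below the 4 arrays of day 0, while at day 7 MC791 reached the day 0 range and MC221 did not. EGFP podocytes held 8.35, 8.28, 8.43 and 8.07 at day 0, 8.34, 8.04 and 8.46 at day 1, 8.55, 8.41, 8.63 and 8.42 at day 4, and 7.44 (MC221), 8.18, 7.96 and 7.89 at day 7. The EGFP days overlapped one another, apart from day 7, which lay wholly below day 4.

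The fitted Timp3 difference from day 0 in TdTomato podocytes was -1.09 ± 0.19 at day 1 (2.13-fold lower) and -1.0 ± 0.19 at day 4 (2.01-fold lower). At day 7 it was -0.67 ± 0.23 with both mice and -0.29 without MC221. Against EGFP podocytes, TdTomato podocytes were lower by 1.08 (2.12-fold) at day 1 and by 1.22 (2.33-fold) at day 4, without overlap on either day. On each of 4 slides the TdTomato day 4 value was below the EGFP one, by differences between -1.46 and -0.99. Timp1 and Timp3 thus lay on opposite sides of their day 0 levels in the same TdTomato arrays of days 1 and 4.

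Timp2, an inhibitor that also takes part in activating proMMP2 at the cell surface together with MMP14, was lower in TdTomato podocytes at day 4 and higher in EGFP podocytes at day 7 than at day 0. TdTomato podocytes had 8.54, 7.89, 7.88 and 7.65 at day 0, 8.38, 7.55, 7.50 and 7.97 at day 1, 7.50, 7.19, 7.20 and 7.50 at day 4, and 8.47 (MC221) and 8.77 (MC791) at day 7. EGFP podocytes had 8.37, 7.91, 7.55 and 8.02 at day 0, 8.23, 7.58 and 7.32 at day 1, 8.47, 8.37, 7.94 and 7.87 at day 4, and 8.77 (MC221), 8.91, 8.56 and 8.83 at day 7. Day 4 TdTomato arrays were below all day 0 TdTomato arrays (-0.64 ± 0.23) and below all day 4 EGFP arrays (-0.82 ± 0.23, 1.76-fold). At day 7 the EGFP arrays stood above all EGFP day 0 arrays, by 0.81 ± 0.23 (1.75-fold). A second, dimmer Timp2 probe followed the first over the 29 arrays (r = 0.890).

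**Figure D1:**
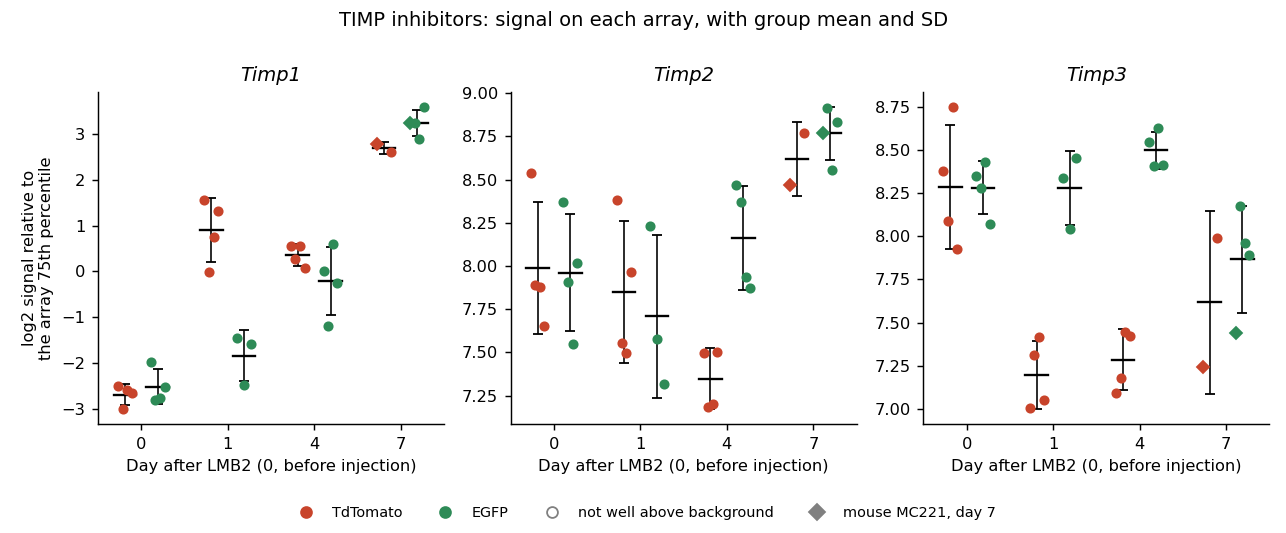
Signal of Timp1, Timp2 and Timp3 on each array (log2 of signal minus the array's 75th percentile) by day, with TdTomato podocytes left of EGFP podocytes; points are arrays, horizontal bars with whiskers are group means and SD, and diamonds mark both arrays of mouse MC221. Timp1 at day 1 averaged 0.90 in TdTomato and -1.84 in EGFP podocytes, and both populations were above 2.5 at day 7, while Timp3 was lower in TdTomato podocytes at days 1 and 4.

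Mmp2, the gelatinase that cuts denatured collagen and type IV collagen, was high at day 7 in both populations. Its TdTomato signal was -3.0, -2.83, -2.55 and -2.02 at day 0, -1.80, -1.24, -1.80 and -0.71 at day 1, -3.11, -3.54, -2.27 and -1.93 at day 4, and 0.16 (MC221) and 0.22 (MC791) at day 7. Its EGFP signal was -2.70, -3.23, -2.86 and -1.81 at day 0, -3.50, -2.88 and -3.47 at day 1, -1.47, -1.74, -1.63 and -0.79 at day 4, and 0.55 (MC221), 0.19, -0.29 and 0.34 at day 7. All day 7 arrays lay above all earlier ones. Between them the populations took opposite courses: TdTomato podocytes were above their day 0 arrays at day 1 and overlapped them at day 4, while EGFP podocytes overlapped day 0 at day 1 and lay above it at day 4.

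At day 7 the Mmp2 difference from day 0 was 2.79 ± 0.42 in TdTomato podocytes (6.92-fold) and 2.85 ± 0.34 in EGFP podocytes (7.21-fold). TdTomato podocytes were 1.89 above EGFP podocytes at day 1 (3.71-fold) and 1.3 below them at day 4 (2.47-fold lower), with no overlap on either day. Those differences had the same sign on each slide, 1.63 to 1.70 at day 1 and -1.80 to -0.65 at day 4. With normexp the TdTomato differences from day 0 were 0.46 at day 1 and 1.56 at day 7, and the EGFP differences 0.64 at day 4 and 1.73 at day 7.

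Mmp9, the other gelatinase, was not well above background in 7 of the 8 groups. At day 4 the TdTomato arrays read -2.49, -2.06, -2.35 and -2.65, against -5.89, -7.05, -6.45 and -6.43 in EGFP podocytes of the same mice. These 4 TdTomato arrays are the only ones of the 29 on which the probe, which has 10 spots, was well above background. Since the dim groups have only a bound, the difference is at least 6.45-fold against TdTomato day 0 and at least 4.27-fold against EGFP day 4; the bound sets the bright group's mean against the higher, on each array, of the dim probe's own signal and the lowest signal among probes well above background. The fitted values were 4.61 ± 0.31 and 4.07 ± 0.31, and on the 4 slides the first ran from 3.56 to 5.26. Under normexp the fitted values were 0.74 and 0.79.

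Mmp9 is a gene that neutrophils and macrophages also carry, so the myeloid markers of the same arrays stand beside it. The highest Mmp9 reading, -2.06, came from mouse MC692, on whose TdTomato array S100a8 (-5.45), S100a9 (-7.76) and Lyz2 were not well above background. On that array Ptprc (-5.27), Adgre1 (-5.15), Mpo (-5.07) and Cd14 (-4.74) were flagged above background, as they were on no EGFP array of day 4. The EGFP array of MC692 read -5.07, -5.28, -5.07 and -5.38 for them without the flag. On the other TdTomato arrays of day 4 Adgre1 (-4.56 to -4.19) and Mpo (-4.80 to -4.52) read higher, also without the flag. The TdTomato array of MC692 had the largest share of spots well above background of all arrays (65.5%), so the flag alone is not a difference in signal. On the other 3 TdTomato arrays of day 4 the neutrophil gene S100a9 read 0.91, 0.53 and -2.58. The EGFP array of MC822 had S100a9 above background at -1.23 and Mmp9 not above it. Summed over the 10 myeloid markers on the array, the signal was 5.51 to 6.86 in TdTomato day 4 arrays, 5.27 to 5.82 in TdTomato day 0 arrays and 4.99 to 5.65 in EGFP day 4 arrays, carried by Itgam and Csf1r. Of 9 myeloid markers tested, 3 passed as higher and 0 as lower in TdTomato than in EGFP podocytes at day 4. Of all genes, 21% were higher and 38.6% lower. The median difference of the 9 was 0.69, against -0.33 for all genes. Against TdTomato day 0, 1 of the 9 passed as higher and 0 as lower. The part of myeloid RNA in the Mmp9 values was not tested.

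Mmp10, a stromelysin, which cuts proteoglycans and fibronectin and activates other proMMPs, was near the floor of the array before day 4. In TdTomato podocytes no array of days 0, 1 or 4 was well above background (means -6.90, -6.73 and -5.77), and at day 7 the signal was -2.23 (MC221) and -1.11 (MC791). EGFP podocytes had 1 of 4 arrays above background at day 0 (-5.08), none of 3 at day 1 and 2 of 4 at day 4 (-4.37 and -1.99). All 4 EGFP arrays of day 7 were above it, at -1.31 (MC221), -0.32, 0.41 and 0.68. Day 7 lay above day 0 without overlap in both populations, and the TdTomato and EGFP arrays of day 7 overlapped.

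For Mmp10 the day 7 difference was at least 10.6-fold in TdTomato podocytes (fitted 5.23 ± 0.78). In EGFP podocytes the fitted difference was 5.97 ± 0.63, against a day 0 group in which 1 of 4 arrays was above background. Without MC221 the fitted day 7 differences were 5.78 in TdTomato and 6.36 in EGFP podocytes. The EGFP difference ran from 4.70 to 7.74 over 3 slides. At day 4 the spread within EGFP podocytes was wide (-4.12 ± 1.57, SD, n = 4), and the difference from day 0 was 1.98 with all 4 mice and 1.27 without MC822. Normexp gave 1.21 at TdTomato day 7 and 2.21 at EGFP day 7.

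Mmp14, the membrane-bound protease that activates proMMP2, was lower early in TdTomato podocytes. It read -2.59, -2.09, -2.61 and -2.11 there at day 0, -4.03, -3.99, -5.55 and -4.37 at day 1 (the third, MC542, not well above background), -3.05, -3.38, -3.29 and -2.62 at day 4, and -2.22 (MC221) and -1.92 (MC791) at day 7. In EGFP podocytes it read -2.0, -2.23, -2.77 and -1.84 at day 0, -2.31, -2.47 and -2.78 at day 1, -2.27, -1.90, -2.26 and -1.96 at day 4, and -1.14 (MC221), -1.74, -1.37 and -1.01 at day 7. The day 1 TdTomato arrays were below every other array of the series. The day 7 EGFP arrays were above every other one.

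In TdTomato podocytes Mmp14 was lower by 2.13 ± 0.27 at day 1 (4.39-fold) and by 0.74 at day 4 than at day 0. EGFP podocytes stood 0.90 ± 0.27 higher at day 7 (1.86-fold). The TdTomato day 1 difference ran from -2.94 to -1.43 on the 4 slides, and normexp gave -0.82. Mmp2 and its activator therefore stood on opposite sides of their day 0 levels in TdTomato podocytes at day 1 and on the same side in EGFP podocytes at day 7.

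**Figure D2:**
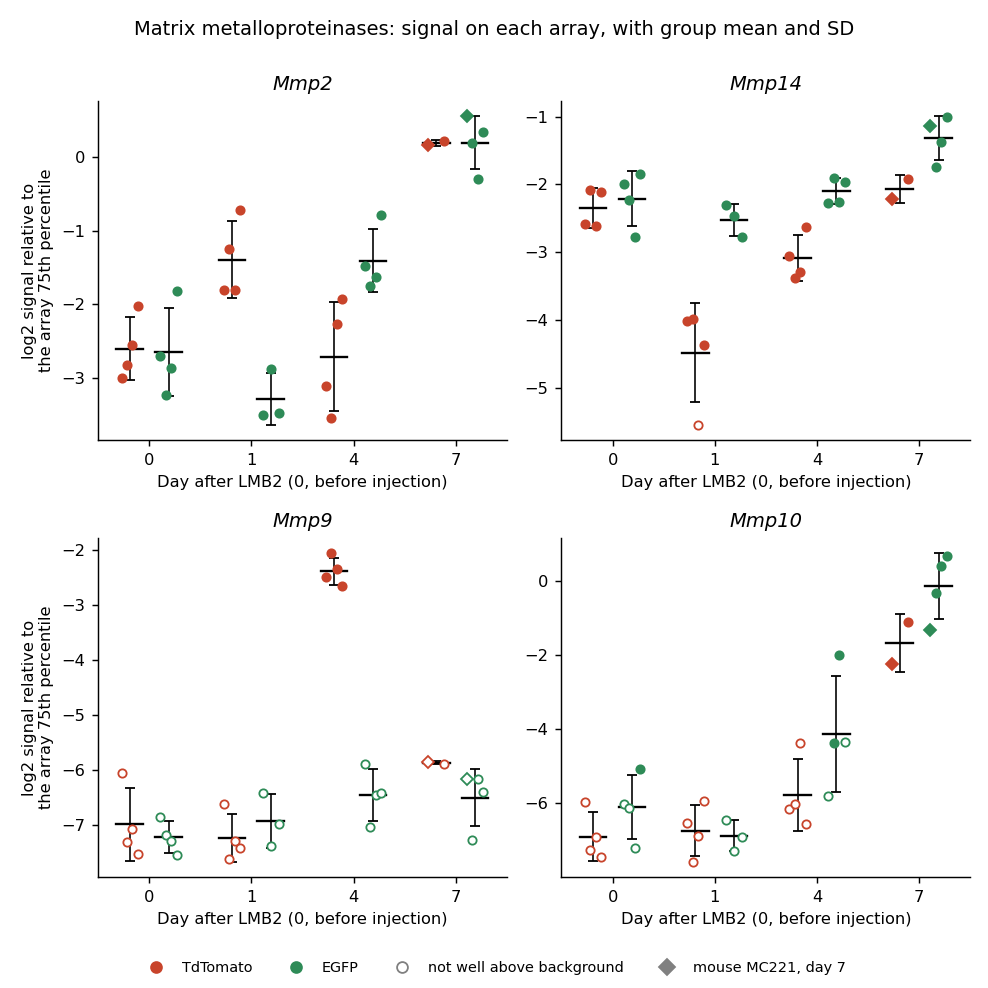
Signal of Mmp2, Mmp9, Mmp10 and Mmp14 on each array (log2 of signal minus the array's 75th percentile) by day, with TdTomato podocytes left of EGFP podocytes; open points are not well above background, horizontal bars with whiskers are group means and SD, and diamonds mark mouse MC221. Mmp9 stands above background in TdTomato podocytes at day 4, with a mean of -2.39, and Mmp2 and Mmp10 are high at day 7 in both populations.

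Adamts1, a protease of aggrecan and versican, separated day 7 from all earlier days. TdTomato podocytes had 2.79, 3.48, 3.03 and 3.32 at day 0, 2.65, 3.10, 2.35 and 3.44 at day 1, 2.81, 2.49, 3.60 and 2.84 at day 4, and 4.14 (MC221) and 5.0 (MC791) at day 7. EGFP podocytes had 2.66, 3.67, 3.18 and 3.38 at day 0, 2.31, 3.11 and 2.81 at day 1, 3.0, 2.96, 3.04 and 2.02 at day 4, and 4.10 (MC221), 4.68, 5.06 and 4.73 at day 7. The day 7 arrays of both populations were above all others, and the earlier groups overlapped one another. The difference from day 0 was 1.41 ± 0.37 in TdTomato podocytes (2.66-fold) and 1.42 ± 0.30 in EGFP podocytes (2.67-fold). Without MC221 it was 1.84 in TdTomato podocytes, from the array of MC791 alone, and 1.60 in EGFP podocytes. With normexp it was 1.19 in TdTomato and 1.34 in EGFP podocytes. The populations differed by 0.07 at day 7.

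Adamts2, which trims the amino end of procollagens, was lower in TdTomato podocytes at day 1 and higher in EGFP podocytes at day 4 than at day 0. TdTomato day 4 and EGFP day 1 overlapped day 0. In TdTomato podocytes the signal was 0.64, 0.27, 0.83 and 0.41 at day 0, -1.41, -0.75, -0.79 and -0.99 at day 1, 0.98, 1.08, 0.72 and 1.03 at day 4, and -0.26 (MC221) and 0.49 (MC791) at day 7. In EGFP podocytes it was 0.60, -0.04, 0.50 and 0.74 at day 0, 1.04, 0.48 and 1.44 at day 1, 2.71, 2.75, 2.46 and 2.25 at day 4, and -0.21 (MC221), 0.37, 1.13 and 0.41 at day 7. The 4 TdTomato arrays of day 1 were the lowest of the 29 and the 4 EGFP arrays of day 4 the highest, each without overlap with the rest.

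Adamts2 was lower by 1.52 ± 0.25 in TdTomato podocytes at day 1 than at day 0 (2.88-fold), and higher by 2.09 ± 0.25 in EGFP podocytes at day 4 (4.26-fold). TdTomato podocytes stood below EGFP podocytes by 1.97 at day 1 (3.93-fold) and by 1.59 at day 4 (3.0-fold). The EGFP day 4 difference was between 1.51 and 2.79 on 4 of 4 slides. A second probe, above background on 10 arrays, followed the first loosely (r = 0.499) and gave 1.04 for EGFP day 4 and -0.45 for TdTomato day 1. The mean of both probes gave 1.57 and -0.99. At day 7 the TdTomato difference from day 0 was -0.42 with both mice and -0.05 without MC221.

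Adamts9, a protease of versican and aggrecan, was above its day 0 arrays at days 1 and 7 in TdTomato podocytes and at days 1, 4 and 7 in EGFP podocytes. Its TdTomato signal was 1.01, 1.08, 1.68 and 1.16 at day 0, 2.67, 2.35, 2.79 and 2.87 at day 1, 1.32, 1.40, 1.94 and 1.56 at day 4, and 1.99 (MC221) and 1.83 (MC791) at day 7. Its EGFP signal was 0.99, 0.85, 1.84 and 1.28 at day 0, 1.90, 2.23 and 2.54 at day 1, 2.42, 2.37, 2.97 and 2.77 at day 4, and 2.52 (MC221), 2.46, 1.92 and 2.72 at day 7. None of these groups overlapped day 0, while TdTomato day 4 did. The fitted differences were 1.44 ± 0.22 at TdTomato day 1 (2.71-fold) and 0.68 at TdTomato day 7, and 0.98, 1.39 (2.62-fold) and 1.16 (2.24-fold) at EGFP days 1, 4 and 7. At day 4 TdTomato podocytes were 1.07 below EGFP podocytes (2.11-fold) with no overlap.

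**Figure D3:**
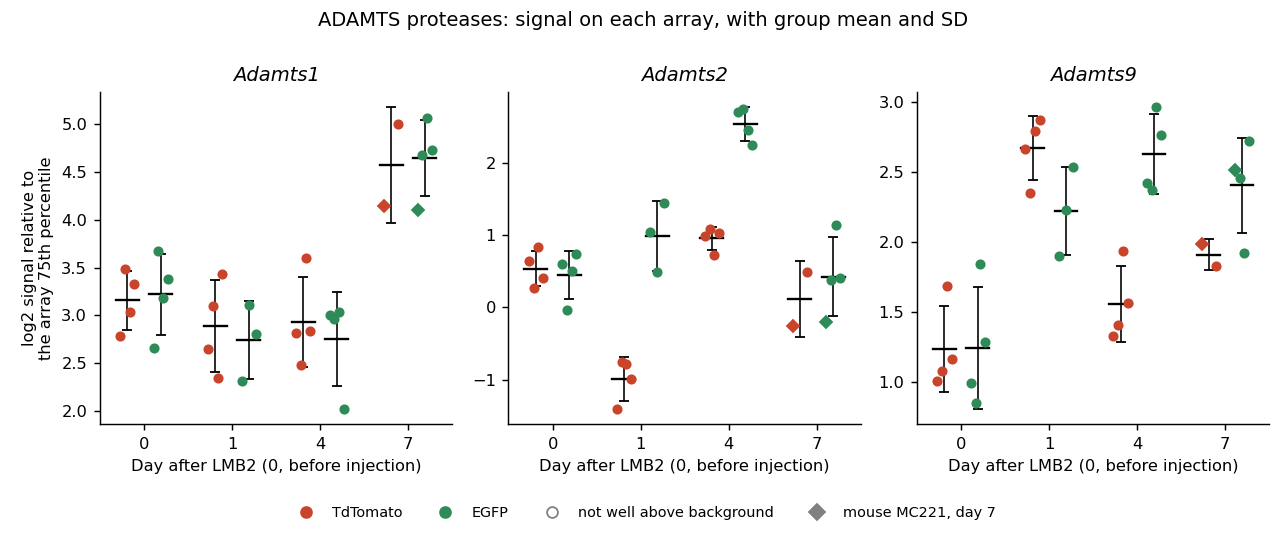
Signal of Adamts1, Adamts2 and Adamts9 on each array (log2 of signal minus the array's 75th percentile) by day, with TdTomato podocytes left of EGFP podocytes; points are arrays, horizontal bars with whiskers are group means and SD, and diamonds mark mouse MC221. Adamts2 is lowest in TdTomato podocytes at day 1 (mean -0.99) and highest in EGFP podocytes at day 4 (mean 2.54).

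By group mean, the highest group was EGFP day 7 for Timp1, Timp2, Mmp2, Mmp10, Mmp14 and Adamts1, EGFP day 4 for Timp3 and Adamts2, TdTomato day 4 for Mmp9 and TdTomato day 1 for Adamts9. TdTomato day 7 came next for Timp1, Timp2, Mmp2, Mmp10, Mmp14 and Adamts1, and its arrays overlapped those of EGFP day 7 except for Timp1 and Mmp14, where both TdTomato arrays were below all 4 EGFP arrays. After day 7, Timp1 ran in the order TdTomato day 1, TdTomato day 4, EGFP day 4, EGFP day 1, EGFP day 0 and TdTomato day 0, and neighbours in that order overlapped except EGFP day 4 and EGFP day 1. For Timp3 the order below EGFP day 4 was TdTomato day 0, EGFP day 0, EGFP day 1, EGFP day 7, TdTomato day 7, TdTomato day 4 and TdTomato day 1, with every pair of neighbours overlapping. Below Adamts2 at EGFP day 4 came EGFP day 1, TdTomato day 4, both day 0 groups and both day 7 groups, which overlapped from one to the next, and TdTomato day 1 last. Mmp2 ran below day 7 in the order TdTomato day 1, EGFP day 4, TdTomato day 0, EGFP day 0, TdTomato day 4 and EGFP day 1, with no overlap between EGFP day 4 and TdTomato day 0 and overlap of the other neighbours. For Mmp14 the groups from TdTomato day 7 down to TdTomato day 4 overlapped from one to the next, and TdTomato day 1 stood apart at the bottom. Adamts9 was led by TdTomato day 1, then EGFP days 4, 7 and 1, all of which overlapped.

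**Figure D4:**
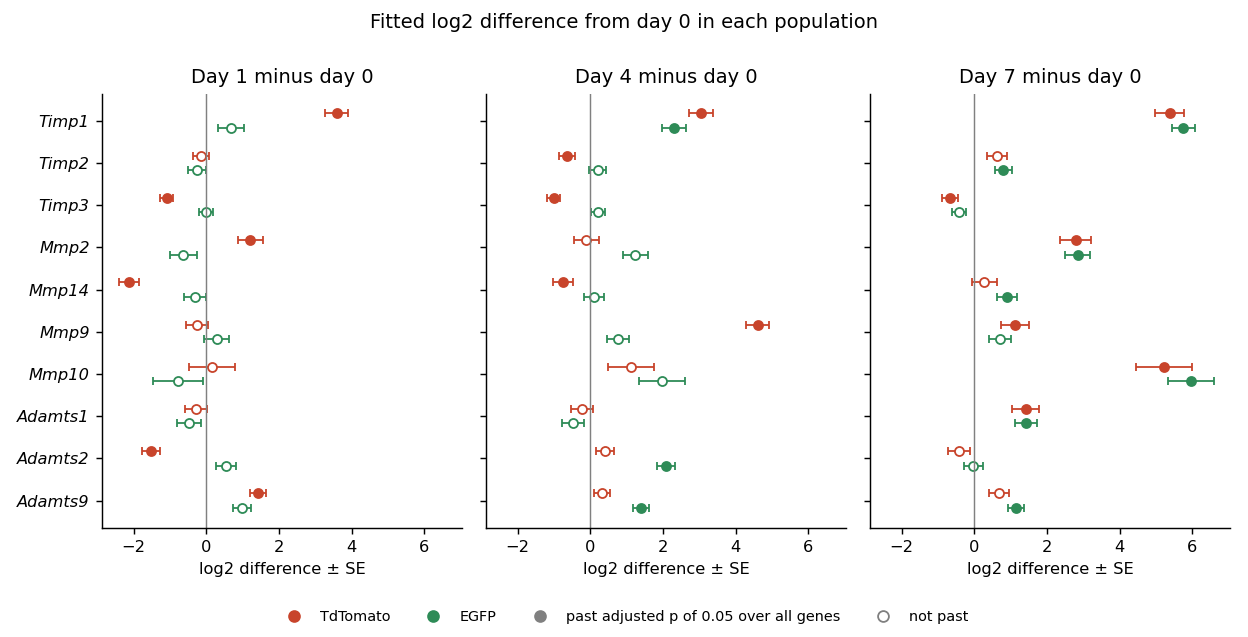
Fitted log2 difference from day 0 of each of the 10 genes (x axis, points with bars of 1 SE) at days 1, 4 and 7, with TdTomato podocytes above EGFP podocytes in each row. Filled points passed an adjusted p of 0.05 over all genes. Timp1 and Mmp10 reach 5.38 and 5.23 in TdTomato and 5.76 and 5.97 in EGFP podocytes at day 7, and Timp3 lies at -1.09 and -1.0 in TdTomato podocytes at days 1 and 4.

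The number of these genes past the threshold of the fit, an adjusted p of 0.05 over all 15628 genes, is given beside the share of all genes past it. Nothing is read from these counts, since the genes were chosen on these contrasts. In TdTomato podocytes 6 of the 10 passed at day 1 (3 higher, 3 lower), against 51.8% of all genes (23.8% higher, 27.9% lower). At day 4 there were 5 (2 higher, 3 lower) against 57.3% (21.4% higher, 35.9% lower), and without the TdTomato array of MC692 there were 3, since Timp2 and Mmp14 dropped out. At day 7 there were 6 (5 higher, 1 lower) against 19.4% (10.9% higher, 8.47% lower), and 1 of these, Mmp9, was below background in both groups. Timp3, the lower one, did not pass under 5 of 11 alternatives, and Mmp9 did not pass under 4. EGFP podocytes had 0 at day 1 against 0.0256% of all genes (0.0256% higher, 0% lower), with 1 gene, Adamts9, at an unadjusted p under 0.05. At day 4 they had 3 higher, Timp1, Adamts2 and Adamts9, against 0.595% of all genes (0.557% higher, 0.0384% lower). Of these 3, Adamts2 alone passed in a fit of only the 2 groups compared, and Adamts2 did not pass as the mean of its probes. At day 7 they had 7 higher against 7.26% (5.34% higher, 1.92% lower). Mmp14 and Timp2 were 2 of those 7, and both fell short of the threshold without MC221. With any 1 of the 8 arrays compared left out, 5 to 6 of the 7 passed, Timp2 and Mmp14 being the ones lost.

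TdTomato against EGFP podocytes gave 0 of the 10 genes at day 0, against 0% of all genes in either direction, with none at an unadjusted p under 0.05. At day 1 there were 5 (2 higher, 3 lower) against 49.3% (23.7% higher, 25.6% lower). At day 4 there were 8 (1 higher, 7 lower) against 59.6% (21% higher, 38.6% lower). Of the 7, Mmp10 overlapped between the populations, with 0 TdTomato and 2 EGFP arrays above background. Mmp10 did not pass with normexp, in a fit of only the groups compared, or with any 1 of 4 arrays left out. At day 7 there were 0 against 6.99% (6.19% higher, 0.8% lower), with 1 gene at an unadjusted p under 0.05. With the mouse as a replicate block, Adamts9 passed at day 1 (0.38) and day 7 (-0.58), Timp1 passed at day 4 (0.57), and Mmp14 at EGFP day 7 did not pass (0.90). The median difference of the 10 genes was 1.03 at EGFP day 7, where that of all genes was 0.00. Between the populations at day 4 it was -1.03, where that of all genes was -0.33. At TdTomato day 1 it was -0.19 (all genes -0.13), and at EGFP day 1 it was -0.13 (all genes -0.02). Nothing is read from these medians, since the genes were chosen on these contrasts.

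Markers of other glomerular cells moved with some of these values. In TdTomato podocytes at day 7, 5 of 10 endothelial markers rose against day 0, and their summed signal was 5.69 and 6.42, against 3.44 to 4.40 at day 0. At day 4 the endothelial sum of TdTomato podocytes was 5.29 in MC822 and 5.87 in MC823, against 2.63 and 3.91 in the other mice, and the proximal tubule sum of MC823 was 5.40, against 0.75 to 1.63. In EGFP podocytes at day 7 the endothelial sum was 3.37 to 3.85, and no endothelial marker passed the test. At that day Mmp2 averaged 0.19 in TdTomato and 0.20 in EGFP podocytes, and Adamts1 4.57 in TdTomato and 4.64 in EGFP podocytes. The mesangial and smooth muscle sum was 2.84 and 3.78 in TdTomato and 2.77 to 3.21 in EGFP podocytes at day 7, against 1.83 to 2.78 in TdTomato and 1.69 to 2.95 in EGFP podocytes at day 0. Of 9 markers of this list tested, 3 passed as higher in TdTomato and 1 in EGFP podocytes at day 7. Their median log2 difference from day 0 was 1.03 in TdTomato podocytes (all genes -0.14) and -0.10 in EGFP podocytes (all genes -0.004). The part of these cells in the day 4 and day 7 values was not tested. At day 1 in TdTomato podocytes the parietal epithelium sum was 1.92 to 2.97, against 0.03 to 0.73 at day 0, and the myeloid sum was 6.38 to 8.05, against 5.27 to 5.82. Of the markers tested, 1 of 6 parietal and 1 of 9 myeloid ones passed as higher there. Each sum is weighted to its brightest markers and does not show that a whole list rose. The parietal sum at day 7 was 1.51 and 1.98 in TdTomato podocytes, and in EGFP podocytes 1.20 to 2.14, against 0.19 to 1.18 at day 0. At day 7 the parietal markers that passed as higher were 2 of 6 in TdTomato and 1 of 6 in EGFP podocytes. The part of both cell types in the Timp1, Mmp10 and Adamts9 values was not tested.

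Among the 8 group means, Timp1 correlated with Mmp2 at 0.89 and with Mmp10 at 0.83, and with Timp3 at -0.57. Mmp10 correlated with Mmp2 at 0.89 and with Adamts1 at 0.88. These points share mice and slides, and they describe the 8 groups only. Mmp10 was above background on no array of TdTomato days 0, 1 and 4 or of EGFP day 1, and on 1 of 4 at EGFP day 0. Its correlations, here and with the genes below, rest mainly on the day 7 groups. Of all genes past the filter, those closest to Timp1 over the group means were Eppk1 (0.991), Col5a3 (0.991) and Exoc3l4 (0.985), and those closest to Timp3 were Mien1 and Pcbd2 (both 0.995). For Mmp10 they were Col1a1 and Pdgfa (both 0.983) and Des (0.981), the intermediate filament gene of injured podocytes. Mmp9 was closest to Sema4f (0.999), Umodl1 (0.999) and Xkr7 (0.997), values that rest on the single group in which Mmp9 was above background. The closest gene to Mmp2 was Tagln2 (0.976), to Timp2 Micall1 (0.988), to Mmp14 Cyp20a1 (0.995), to Adamts1 Kif24 (0.98), to Adamts2 Gpd1 (0.972) and to Adamts9 Gtpbp8 (0.939).

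Around these 10 genes, 92 others of the protease network passed the filter, in 7 lists: other MMPs, other ADAMTS genes, ADAM sheddases, other inhibitors, activators, matrix substrates and cell-surface partners. In TdTomato podocytes at day 1, 14 rose and 24 fell, 41.3% of the 92 against 51.8% of all genes. At day 4, 20 rose and 26 fell (50% against 57.3%), and at day 7, 23 rose and 3 fell (28.3% against 19.4%). EGFP podocytes had none past limma's adjusted threshold at day 1 (6 at an unadjusted p under 0.05) or at day 4 (12 unadjusted), and 17 that rose and none that fell at day 7 (18.5% against 7.26%). Without the TdTomato array of MC791 the TdTomato day 7 count was 13 in place of 26, and with normexp it was 18 higher and 5 lower. Without the EGFP day 0 array of MC731 the EGFP day 7 count was 11. The median log2 difference of the 92 genes was -0.24, 0.06 and 0.34 at TdTomato days 1, 4 and 7, where all genes had -0.13, -0.29 and -0.14.

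Of 16 activators measured, 5 rose and 7 fell in TdTomato podocytes at day 1. Plau, urokinase, which turns plasminogen into plasmin, averaged -0.05 ± 0.62 at day 1 and -6.40 ± 0.76 at day 0 in TdTomato podocytes (SD, n = 4 each), at least 32.7-fold higher (adjusted p = 5.95e-10, limma). Prss8, the membrane protease prostasin, rose 57.8-fold (adjusted p = 6e-12). The plasminogen activator Plat, the convertase Furin and the lysosomal protease Ctsb fell by 0.94, 1.1 and 1.43. Plaur, the urokinase receptor, rose 19.8-fold in TdTomato podocytes (adjusted p = 0.00594) and 17.7-fold in EGFP podocytes (adjusted p = 0.00259) at day 7. Without the TdTomato array of MC791 the TdTomato rise no longer passed, and its log2 difference of 4.30 was between 3.7 and 4.91 with an array left out.

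Among the other inhibitors, Reck, a membrane-anchored inhibitor of MMP2, MMP9 and MMP14, fell by 1.90 in TdTomato podocytes at day 1 (adjusted p = 7.18e-08, limma) and by 0.93 at day 4. It averaged -1.67 ± 0.47 in TdTomato podocytes at day 1 and 0.23 ± 0.26 at day 0. Serpinf1, which encodes pigment epithelium-derived factor, a serpin that does not inhibit proteases, rose 471-fold at day 4 (adjusted p = 1e-12), to 4.25 ± 0.53, against -4.62 ± 0.57 at day 0 in TdTomato podocytes, where 2 of 4 arrays were above background. It stayed at 2.04 at TdTomato day 7 and between -3.73 and -2.89 at EGFP day 7. Timp4, a further member of the TIMP family, was 3.08-fold higher in TdTomato than in EGFP podocytes at day 4 (adjusted p = 0.0163), but did not pass with normexp.

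Of 10 other MMPs, 3 rose and 3 fell in TdTomato podocytes at day 4. Mmp13, a collagenase, was above background in TdTomato podocytes at days 4 and 7 and in no other group, and its day 4 rise was at least 16.1-fold (adjusted p = 1.7e-11, limma). Mmp25, a membrane-anchored protease of leukocytes, was at least 6.11-fold higher at day 1 (adjusted p = 1.46e-09) and at least 6.35-fold higher at day 4 (adjusted p = 1e-09). Mmp23, a membrane MMP, fell by 0.61 at day 1 and by 1.38 at day 4. In EGFP podocytes no other MMP passed the test on any day.

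Of 13 other ADAMTS genes, 3 rose in TdTomato podocytes at day 1: Adamts16 (33.0-fold, adjusted p = 2.27e-06, limma), the aggrecanase Adamts4 (14.3-fold) and the procollagen protease Adamts14 (8.79-fold). Adamts14 was 32.0-fold higher at day 4 (adjusted p = 3.79e-09), with 1 of 4 TdTomato arrays above background at day 0. In EGFP podocytes 4 rose at day 7, among them Adamts14 (at least 6.65-fold, adjusted p = 2.61e-05) and Adamts8 (8.33-fold, adjusted p = 4.72e-05). Of 10 ADAM sheddases, Adam10, Adam15 and Adam17 fell in TdTomato podocytes at day 1, Adam10 by 1.72.

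Of 19 matrix substrates, 8 rose in TdTomato podocytes at day 7 (42.1% against 19.4% of all genes) and 5 in EGFP podocytes (26.3% against 7.26%), and none fell. Col1a1 rose 12.4-fold in TdTomato podocytes (adjusted p = 0.000708, limma), with 2 of 4 day 0 arrays above background, and 15-fold in EGFP podocytes (adjusted p = 5.05e-05). Fibronectin, Fn1, was at least 18.7-fold higher in TdTomato podocytes already at day 1 (adjusted p = 1.68e-06), and 6.46-fold higher in EGFP podocytes at day 7 (adjusted p = 0.00464), where it did not pass with normexp. Col1a2 fell by 2.11 in TdTomato podocytes at day 1. Among 13 cell-surface partners, Cd63, a tetraspanin to which TIMP1 binds, rose 3.06-fold in EGFP podocytes at day 7 (adjusted p = 4.08e-05) and 1.95-fold in TdTomato podocytes (adjusted p = 0.0203), the second of which did not pass without MC221. Cd44, which docks MMP9 at the cell surface, rose 9.63-fold in TdTomato podocytes at day 4 (adjusted p = 2.15e-09), the group in which Mmp9 was above background.

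Between the populations, 13 network genes were higher and 16 lower in TdTomato than in EGFP podocytes at day 1, and 20 higher and 30 lower at day 4. None passed limma's adjusted threshold at day 0 (2 at an unadjusted p under 0.05). At day 7, 5 were higher and none lower: Mmp13, Adamtsl2, Serpinf1, Ctss and Serpinb5. Serpinb5 was below background in both groups, and Ctss, a lysosomal protease, did not pass under 5 of the alternatives. Without the TdTomato array of MC791 there were 2, and with the mouse as a replicate block 6 higher and 3 lower. The split was 3 higher and 2 lower with normexp and 9 higher and 2 lower with the authors' own values.

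**Figure D5:**
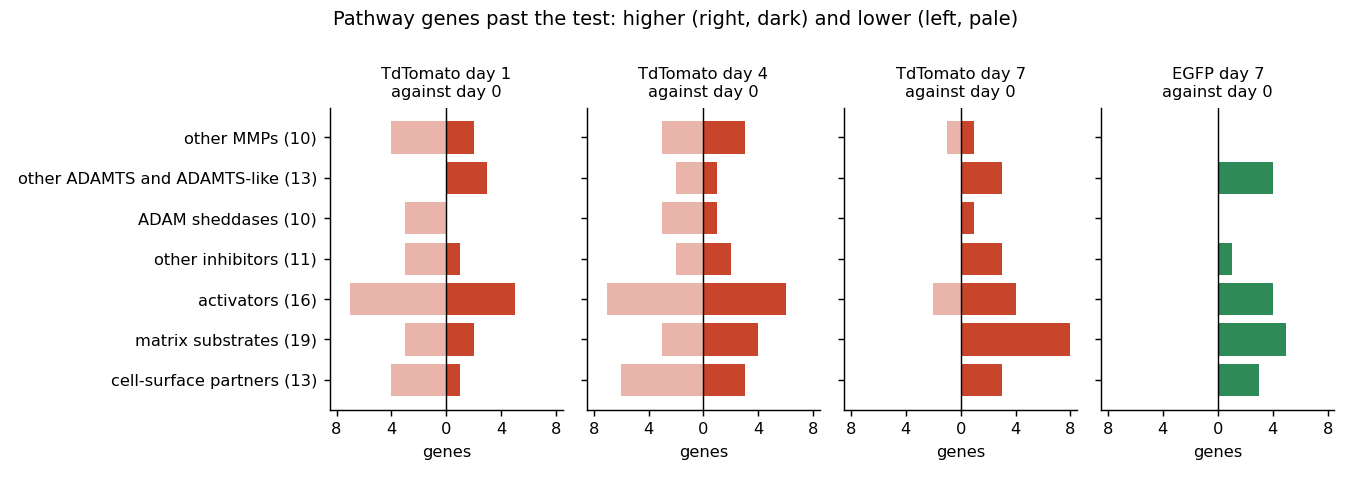
Number of genes of each list of the protease network past the limma threshold against day 0 (x axis, genes), with higher genes to the right in dark and lower genes to the left in pale; list sizes stand in parentheses, and EGFP days 1 and 4, with none, are not drawn. TdTomato podocytes have 14 higher and 24 lower at day 1 and 23 higher and 3 lower at day 7, and EGFP podocytes have 17 higher and none lower at day 7.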

How the data were processed

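Total RNA of sorted podocytes was measured on 29 single-colour Agilent mouse arrays with 62976 spots each. Per the labels, cells were sorted on a FACSAria into TRIzol LS, and Cy3-labelled target was made from a small amount of RNA with Agilent's low-input kit. The deposited spot intensity was made by Agilent Feature Extraction 11.5.1.1, per the submitters' processing notes, and is the background-subtracted processed signal, per the file headers. The authors' log2 values in the series matrix, as deposited, have column medians of -3.18 to -2.33 and a scale and centring for which no source was found here. They served as an alternative; 27 of their 29 columns match the scanner files.

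Flagged spots were set aside, and the signal was turned into log2 and reduced by the array's 75th percentile. Probes well above background on at least 3 of 29 arrays were kept (38196). Names came from RefSeq accessions (26582 of 55681 probes with 1 symbol, 29099 with none), and the brightest probe of a gene was used, which left 15628 genes. Limma 3.58.1 in R 4.3.3 fitted 8 group means, with Benjamini-Hochberg adjustment over all genes at 0.05. The fit was first tested on simulated data with known changes, not all of which it called. Tables were made with pandas 2.3.3 and numpy 2.4.6 in Python 3.11.15, and figures with matplotlib 3.10.9.

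The 10 genes and all gene lists were chosen with earlier results of these data known. The genes named from the lists are up to 4 called genes per list and direction of largest difference. The genes named as most alike are from the 3 with the highest correlation over the 8 group means. For these, only genes well above background on every array of their highest group were searched, without clone and model names. Both arrays of a mouse come from the same animal and form a paired replicate block (13 pairs, deviations from group means correlating at 0.04 to 0.64, consensus 0.60), so the mouse was an alternative block. The other alternatives were normexp with an offset of 50, on the median signal of each spot in place of the mean, quantile normalization, filters on dim probes, flagged spots kept, the mean of a gene's probes, the slide as a block, only the groups compared, the authors' values, no MC221 arrays, and each array left out in turn. The number of arrays limits the precision. Protein sequences were not used here. A gene that the naming rule gives is not reported here.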

Additional observations from a re-analysis of the deposited data

Results flagged for a closer look

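On the Adamts1 probe the EGFP day 4 array of MC823 read 2.02, against 2.96 to 3.04 on the other 3. Among summed cell type markers, arrays also stood far from the rest of their group: the podocyte sum of MC151 in EGFP day 4 was 11.18 (others 10.55 to 10.63), the mesangial sum of MC742 in TdTomato day 0 was 2.78 (others 1.83 to 1.91), and the erythrocyte sum of MC742 in EGFP day 0 was 0.62 (others -4.54 to -3.69). The EGFP day 7 array of MC221, whose identity is not settled, had a distal nephron sum of 4.78 (others 0.97 to 1.5) and a lymphocyte sum of 2.37 (others 1.94 to 2.01). The TdTomato day 7 array of MC221, in a group too small to be examined for outliers, had a distal nephron sum of 5.93, against 1.39 in MC791. Chance marks about 1 group in 20 in this way, and 60 groups of the 10 genes and 54 of the marker sums were examined.

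In 3 of 30 pairs of gene and day, every array of one population lay on one side of its day 0 mean and every array of the other population on the opposite side. The share of all genes that meet this rule is not given here, so nothing is read from the count. In each of the 3 the EGFP arrays overlapped those of day 0. The difference between the 2 changes was not tested, since no interaction of day and population was fitted. Timp3 at day 4 was at -1.0 in TdTomato and 0.22 in EGFP podocytes relative to day 0. TdTomato minus EGFP was -1.22 on that day and 0.00 at day 0. Mmp2 at day 1 was at 1.21 in TdTomato and -0.63 in EGFP podocytes, with 1.89 between the populations at day 1 and 0.05 at day 0. Adamts2 at day 1 was at -1.52 in TdTomato and 0.54 in EGFP podocytes, with -1.97 between them at day 1 and 0.09 at day 0.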

How the results depend on the processing

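Of 40 calls of the 10 genes, 29 held under all alternatives and with each array left out. No difference of these genes or of the named network genes reversed while called. Of 1840 recomputed differences of the 10 genes 45 moved by more than the spread between arrays, 29 of them under normexp, and the cause was not tested. The count of these genes was 1 at EGFP day 4 in a fit of only the groups compared. For TdTomato against EGFP at day 7 it was 1 with the mouse as a replicate block, 2 after quantile normalization and 1 with the slide as a block. Leaving out an array gave 3 to 5 at TdTomato day 4, with 3 without MC692. The block changed the calls of Adamts9, Timp1 and Mmp14 given above and no other call of the 10 genes.

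For the 92 network genes, EGFP day 4 gave 3 with the slide as a block and 0 to 1 with an array left out (1 without EGFP MC151). TdTomato against EGFP at day 7 gave 9 with the mouse as a replicate block, 8 with the slide as a block, 11 with the authors' values, and 2 to 7 with an array left out. Leaving out an array gave 11 to 18 at EGFP day 7 and 13 to 27 at TdTomato day 7. Normexp moved the median difference of all genes by 0.12 at TdTomato day 7 and by 0.10 between the populations at day 4, and the share of all called genes that were higher fell to 44.3% with normexp, against 56.3%, at TdTomato day 7. For the populations at day 7 it was 60.4% with normexp and 66.4% with the authors' values, against 88.6%. Groups of 2 to 4 arrays and signals near background, as for Mmp9 and Mmp10, limit all of these values.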
